A study of Homo sapiens with 9 samples.

Results

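The transcripts described here are those of the MAP kinase cascades, measured in macrophage-like THP-1. This human line came from a monocytic leukaemia, and the phorbol ester PMA makes it adhere and take on macrophage features. Members were the genes whose symbol is MAPK, MAPKAPK, MAP2K, MAP3K, MAP4K or RPS6KA followed by a number, which gave 50 named genes of the 14884 named in the table. Of these, 39 encode kinases and 11 share the symbol pattern without being kinases of the cascade (scaffolds, antisense and intronic transcripts, pseudogenes and partly related genes). Where a gene had several rows, the brightest was used. The level limit for a test was a mean of 4.28 on the log2 scale, and 33 members passed it, 27 of them kinases.

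Every group was M0 THP-1, 1 cell line made macrophage-like with PMA, whose dose is not given in the labels, so the vehicle cells carry the phorbol ester as well. The 3 treatments, compared at 16 h, were cisplatin, osimertinib and vehicle. Cisplatin, a platinum drug that crosslinks DNA, was given at 0.5 µM. Osimertinib, an inhibitor of the EGF receptor tyrosine kinase, was given at 100 nM. The sample titles state the 16 h for both drugs and not for vehicle. Each group had 3 arrays, which the labels call independent biological replicates. The values are relative transcript levels on the log2 scale, one array per RNA sample on the Affymetrix Human Gene 2.0 ST platform. They say nothing of the phosphorylation state of a kinase, and because probes differ in brightness, the level of one gene is not set against that of another.

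In a MAP kinase cascade a signal passes through successive phosphorylations: a MAP4K or a small GTPase engages a MAP3K, the MAP3K activates a MAP2K, the MAP2K activates a MAP kinase, and the MAP kinase acts on transcription factors and on MAPKAP kinases. The main branches are ERK, which carries growth factor and phorbol ester signals, and JNK and p38, which carry stress and inflammatory signals. In macrophages these branches control cytokine production after Toll-like receptor stimulation, and PMA itself engages the ERK branch through protein kinase C.

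Of 10 macrophage marker genes named in the table, 8 were above the level limit, among them CD68, CSF1R, TYROBP and CD14. CD14 lay close to the limit of 4.28, with means of 4.22 in vehicle arrays, 4.28 in cisplatin arrays and 4.40 in osimertinib arrays. The summed log2 level of the 10 named genes was 65.01 to 66.90 in cisplatin arrays, 64.40 to 65.88 in osimertinib arrays and 64.02 to 64.31 in vehicle arrays. Of the 8, 3 rose and 1 fell with each drug: CD68 rose by 0.51 with cisplatin and by 0.30 with osimertinib, CSF1R by 0.50 with cisplatin and by 0.29 with osimertinib, and CD4 by 0.65 with cisplatin and by 0.59 with osimertinib, while LAPTM5 fell by 0.23 with cisplatin and by 0.26 with osimertinib. Markers of other cell types were above the limit for 3 of 6 T and NK cell genes, 2 of 2 B cell genes, 2 of 4 epithelial genes and 1 of 3 fibroblast and endothelial genes. Of those above the limit, the epithelial gene KRT18 fell by 0.35 with cisplatin and by 0.30 with osimertinib. With the mean over all its rows neither fall was called (adjusted p = 0.25 and 0.342). The KRT18 call with cisplatin was also lost on leaving out either of 2 arrays (adjusted p = 0.0656 and 0.0782). That with osimertinib was lost on leaving out any of 3 arrays (0.0638 to 0.15) and in 5 settings that include this mean (0.0582 to 0.342). The T and NK cell gene NCAM1 fell by 0.23 with osimertinib, a call lost on leaving out any of 6 arrays and in 4 other settings. The B cell gene CD22 fell by 0.98 with osimertinib (adjusted p = 1.88e-05). Between the drugs, NCAM1 was 0.41 and CD22 0.92 lower with osimertinib (adjusted p = 0.0189 and 0.000477). The NCAM1 call between the drugs was lost on leaving out any of 4 arrays (adjusted p = 0.0788 to 0.0905). It was also lost in 2 other settings (0.0633 and 0.064). The summed log2 level of the 6 T and NK cell genes was 26.56 to 27.38 in cisplatin arrays, 26.06 to 26.96 in osimertinib arrays and 25.99 to 26.61 in vehicle arrays. The B cell genes summed to 11.72 to 12.13 in cisplatin arrays, 10.85 to 11.09 in osimertinib arrays and 11.39 to 11.81 in vehicle arrays. The epithelial genes summed to 18.24 to 18.93 in cisplatin arrays, 17.58 to 18.60 in osimertinib arrays and 17.94 to 18.46 in vehicle arrays, and the fibroblast and endothelial genes to 10.82 to 11.30 with cisplatin, 11.03 to 11.52 with osimertinib and 10.86 to 11.14 with vehicle. The part of these markers in the results below was not tested. Arrays of 1 group correlated at 0.983 to 0.991 (cisplatin), 0.985 to 0.988 (osimertinib) and 0.986 to 0.987 (vehicle) over the 7442 genes tested, and those of a drug and vehicle at 0.944 to 0.958.

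Against vehicle, 11 of 33 tested members changed with cisplatin, 5 higher and 6 lower, all of them kinases. Over all 7442 genes tested, 31.0% were called with cisplatin, 16.5% higher and 14.5% lower, so the members' share of 33.3% lies near the background. With osimertinib 9 members changed, 4 higher and 5 lower, again all kinases, a share of 27.3% against 30.6% of all genes, 16.9% higher and 13.7% lower. The median difference of the members was -0.03 with cisplatin and -0.04 with osimertinib, beside 0.03 with cisplatin and 0.04 with osimertinib over all tested genes. By another count, the cisplatin arrays did not overlap vehicle for 5 members that were higher and 8 that were lower (22.5% and 19.8% of all tested genes), and the osimertinib arrays for 5 that were higher and 10 that were lower (24.6% and 19.5%). The called share of all members thus lay near the background in both comparisons. Among the 27 tested kinases alone it was 40.7% with cisplatin and 33.3% with osimertinib, and the osimertinib arrays lay below vehicle for 9 of them. Whether these shares differ from the background was not tested, and the results below are given for single kinases. The count of members called fell to 6 with cisplatin when vehicle replicate 1 was left out, and to 5 with osimertinib when vehicle replicate 1 or osimertinib replicate 2 was left out. Both comparisons use the same 3 vehicle arrays, so their values are given side by side below and not as independent evidence of each other.

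**Figure D1:**
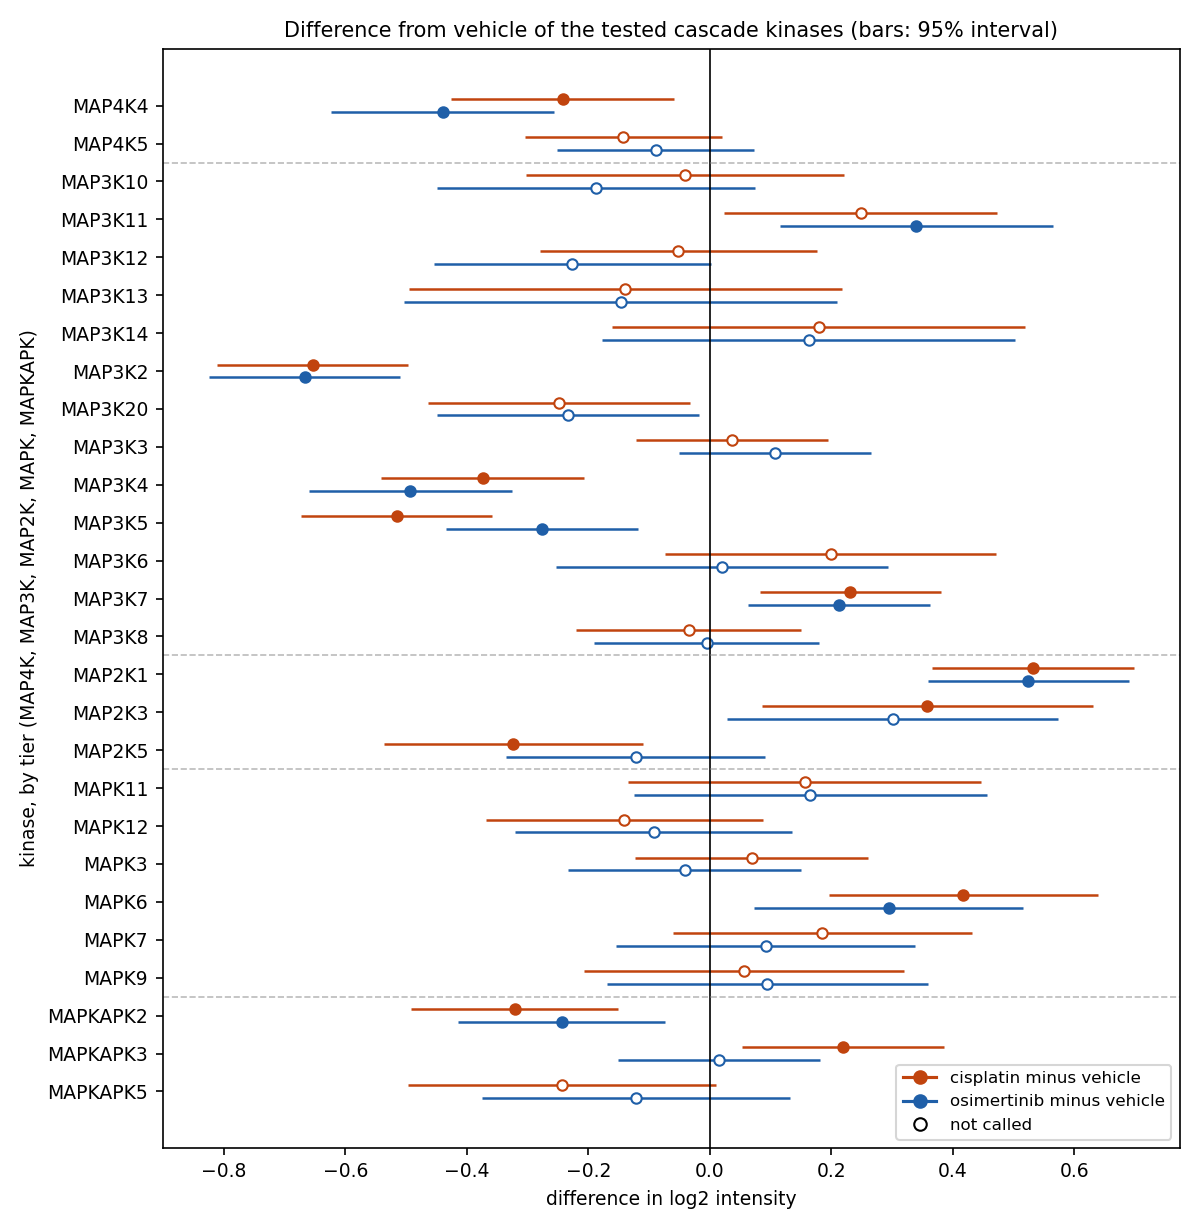
Difference from vehicle on the log2 scale (horizontal axis) for the 27 tested kinases, ordered by tier, with the 95% interval of the fit; filled points passed the adjusted p threshold of 0.05. The largest differences are those of MAP3K2 (-0.65 with cisplatin and -0.67 with osimertinib) and MAP2K1 (0.53 and 0.52), and most intervals in the MAP kinase tier include 0.

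The members MAP2K1, MAP3K2 and MAP3K4 were called with each drug under all 16 alternative ways of processing the values, and their promoter sequences are shown for that reason. They are RefSeq sequences of assembly GRCh38.p14, from 250 bases before to 50 after the annotated start, read 5′ to 3′ on the strand of the gene. Capitals mark matches, on either strand, to the GC box GGGCGG and the CCAAT box. The MAP2K1 window is chr15:66386662-66386961 (plus strand), the MAP3K2 window chr2:127388416-127388715 (minus strand) and the MAP3K4 window chr6:160991519-160991818 (plus strand).
MAP2K1: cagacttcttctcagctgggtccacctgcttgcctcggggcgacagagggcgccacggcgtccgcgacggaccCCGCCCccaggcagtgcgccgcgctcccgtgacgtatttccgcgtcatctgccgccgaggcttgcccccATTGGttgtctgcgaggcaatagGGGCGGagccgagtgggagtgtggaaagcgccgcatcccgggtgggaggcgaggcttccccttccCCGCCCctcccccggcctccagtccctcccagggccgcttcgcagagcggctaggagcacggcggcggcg
MAP3K2: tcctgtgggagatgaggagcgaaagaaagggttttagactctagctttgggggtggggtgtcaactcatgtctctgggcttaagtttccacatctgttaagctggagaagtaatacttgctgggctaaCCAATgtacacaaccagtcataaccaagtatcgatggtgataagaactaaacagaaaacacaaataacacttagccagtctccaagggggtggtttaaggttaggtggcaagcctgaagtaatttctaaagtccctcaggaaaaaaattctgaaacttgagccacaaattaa
MAP3K4: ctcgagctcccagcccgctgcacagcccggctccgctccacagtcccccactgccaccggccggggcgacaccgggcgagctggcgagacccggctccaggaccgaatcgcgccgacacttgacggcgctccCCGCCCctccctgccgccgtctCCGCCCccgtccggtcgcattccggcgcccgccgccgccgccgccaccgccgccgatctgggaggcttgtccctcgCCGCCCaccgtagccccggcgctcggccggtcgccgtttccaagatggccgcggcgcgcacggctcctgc
The MAP2K1 window held 3 GC boxes and 1 CCAAT box in a sequence of 72.0% G and C. The MAP3K4 window held 3 GC boxes, no CCAAT box and 78.0% G and C. The MAP3K2 window differed in composition, with 42.7% G and C, 1 CCAAT box and no GC box. Each of these windows lies at the outermost annotated start of its gene. Starts further inside the gene were not examined, so the composition is that of this window and may not be that of the start in use. A promoter was listed for 30 of the 33 tested members, and a GC box was found in 25 of them (83.3%), against 71.2% of 5861 promoters of tested genes and 44.6% of all 27305 promoters. A CCAAT box was in 8 member promoters (26.7%), against 36.9% of promoters of tested genes and 35.7% of all promoters. Motifs of factors downstream of MAP kinases were also searched on both strands: the cyclic AMP response element TGACGTCA was in 2 member promoters (6.7%), against 3.4% of those of tested genes and 2.0% of all, the AP-1 site TGANTCA in 2 (6.7%), against 4.3% and 7.8%, and the ETS site CCGGAAG in 5 (16.7%), against 20.5% and 10.7%. The E-box CACGTG was in 2 (6.7%), against 10.4% of promoters of tested genes and 7.4% of all. These are letter matches in a fixed window and say nothing of binding.

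MAP2K1 encodes MEK1, a kinase that phosphorylates and activates ERK. Its log2 level was 7.37, 7.50 and 7.57 in cisplatin arrays and 7.56, 7.49 and 7.37 in osimertinib arrays, against 6.91, 6.92 and 7.01 in vehicle arrays. Every drug-treated array was above every vehicle array. MAP2K1 rose by 0.53 log2 units with cisplatin (SE 0.0769, adjusted p = 0.000169, 1.45-fold) and by 0.52 with osimertinib (SE 0.0769, adjusted p = 0.00019, 1.44-fold).

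MAP2K3 encodes MKK3, which activates p38. Its log2 level was 5.90, 6.12 and 6.30 in cisplatin arrays and 6.05, 6.01 and 6.09 in osimertinib arrays, against 5.70, 6.01 and 5.54 in vehicle arrays. Vehicle replicate 2 lay inside the cisplatin range, so the groups overlapped. The rise with cisplatin was 0.36 log2 units (SE 0.126, adjusted p = 0.0458), and the difference with osimertinib was 0.30 (SE 0.126, adjusted p = 0.0896). The cisplatin call was lost in 11 of 16 alternatives, at adjusted p = 0.0579 to 0.191 in 7 fits that each left out an array (vehicle replicates 1 and 3, cisplatin replicates 2 and 3, and each osimertinib replicate), and at 0.0576 to 0.0897 in 4 other settings. With osimertinib MAP2K3 passed without vehicle replicate 2 (adjusted p = 0.0225), after quantile normalization (0.0189) and after median centring (0.0497).

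MAP2K5 encodes MEK5, the activator of ERK5. Its log2 level was 4.65, 4.74 and 4.52 in cisplatin arrays and 4.84, 4.83 and 4.84 in osimertinib arrays, against 5.00, 4.97 and 4.91 in vehicle arrays. The 3 groups did not overlap, with cisplatin lowest and osimertinib between. MAP2K5 fell by 0.32 log2 units with cisplatin (SE 0.099, adjusted p = 0.024), while the osimertinib difference of -0.12 did not pass (adjusted p = 0.388). Without vehicle replicate 1, vehicle replicate 2 or cisplatin replicate 3 the cisplatin call was lost (adjusted p = 0.0696, 0.0608 and 0.106), as it was after quantile normalization (0.0566) and median centring (0.058). Rows for MAP2K2 (MEK2), MAP2K4 (MKK4) and MAP2K6 (MKK6) lay under the level limit.

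Among the MAP3K enzymes, 13 of 17 named genes were tested. With cisplatin 1 rose and 3 fell, and with osimertinib 2 rose and 3 fell. MAP3K2 and MAP3K4 encode MEKK2, which feeds the ERK5 and JNK branches, and MEKK4, a partner of GADD45 proteins upstream of JNK and p38.

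MAP3K2 had a log2 level of 7.33, 7.40 and 7.54 in cisplatin arrays and 7.48, 7.40 and 7.35 in osimertinib arrays, against 8.16, 8.05 and 8.03 in vehicle arrays. All drug-treated arrays were below all vehicle arrays, with a wide gap between them. MAP3K2 fell by 0.65 log2 units with cisplatin (SE 0.073, adjusted p = 2.23e-05, 1.57-fold) and by 0.67 with osimertinib (SE 0.073, adjusted p = 1.92e-05, 1.59-fold).

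MAP3K4 had a log2 level of 7.33, 7.55 and 7.54 in cisplatin arrays and 7.36, 7.26 and 7.44 in osimertinib arrays, against 7.78, 7.88 and 7.89 in vehicle arrays. Neither drug's arrays overlapped those of vehicle. MAP3K4 fell by 0.37 log2 units with cisplatin (SE 0.0778, adjusted p = 0.00246, 1.30-fold) and by 0.49 with osimertinib (SE 0.0778, adjusted p = 0.000331, 1.41-fold).

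MAP3K5 encodes ASK1, which thioredoxin holds inactive and which oxidative stress releases towards JNK and p38. Its log2 level was 7.54, 7.81 and 7.67 in cisplatin arrays and 7.97, 7.88 and 7.88 in osimertinib arrays, against 8.21, 8.12 and 8.23 in vehicle arrays. The 3 groups did not overlap, cisplatin being lowest and vehicle highest. MAP3K5 fell by 0.52 log2 units with cisplatin (SE 0.0733, adjusted p = 0.00015, 1.43-fold) and by 0.28 with osimertinib (SE 0.0733, adjusted p = 0.0114, 1.21-fold). The osimertinib call was lost when each array was centred on its median (adjusted p = 0.077).

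MAP3K7 encodes TAK1, which with its TAB partners links Toll-like and TNF receptors to IKK, JNK and p38. Its log2 level was 7.81, 8.01 and 7.83 in cisplatin arrays and 7.95, 7.82 and 7.82 in osimertinib arrays, against 7.64, 7.68 and 7.63 in vehicle arrays. The drug-treated arrays all lay above vehicle, by a small margin. MAP3K7 rose by 0.23 log2 units with cisplatin (SE 0.0694, adjusted p = 0.0217, 1.17-fold) and by 0.21 with osimertinib (SE 0.0694, adjusted p = 0.0326, 1.16-fold). The cisplatin call was lost without vehicle replicate 1, vehicle replicate 3 or cisplatin replicate 2 (adjusted p = 0.0613, 0.067 and 0.102), and without trend and robust fitting (0.0527). The osimertinib call was lost without vehicle replicate 1, 2 or 3 or osimertinib replicate 1 or 2 (adjusted p = 0.0839, 0.0573, 0.0899, 0.119 and 0.0505), without the level filter (0.0583) and without trend and robust fitting (0.0721).

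MAP3K11 encodes MLK3, a mixed-lineage kinase upstream of JNK. Log2 levels were 5.71, 5.73 and 5.75 in cisplatin arrays and 5.71, 5.96 and 5.79 in osimertinib arrays, against 5.36, 5.43 and 5.65 in vehicle arrays. Both drugs' arrays lay above vehicle. MAP3K11 rose by 0.34 log2 units with osimertinib (SE 0.104, adjusted p = 0.0242, 1.27-fold), and the cisplatin difference of 0.25 did not pass (SE 0.104, adjusted p = 0.0899). The osimertinib call was lost without vehicle replicate 1, vehicle replicate 2 or osimertinib replicate 2 (adjusted p = 0.096, 0.0758 and 0.11), and the cisplatin difference passed without vehicle replicate 3 (adjusted p = 0.04) and after quantile normalization (0.0204).

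MAP3K20 encodes ZAK, the sensor of stalled ribosomes in the ribotoxic stress response. On the log2 scale it measured 5.21, 5.42 and 5.33 in cisplatin arrays and 5.42, 5.24 and 5.34 in osimertinib arrays, against 5.47, 5.66 and 5.57 in vehicle arrays. The drug arrays lay below vehicle in every case, but the differences of -0.25 with cisplatin and -0.23 with osimertinib did not pass (adjusted p = 0.0784 and 0.0965). MAP3K8 encodes TPL2, which drives ERK in stimulated macrophages, and its 9 values ran from 5.40 to 5.48. Its difference from vehicle was -0.03 with cisplatin (95% interval -0.22 to 0.15) and -0.01 with osimertinib (95% interval -0.19 to 0.18). MAP3K3, which encodes MEKK3, differed by 0.04 with cisplatin (95% interval -0.12 to 0.19) and by 0.11 with osimertinib (95% interval -0.05 to 0.27). MAP3K14, which encodes NIK of the noncanonical NF-kB pathway, differed by 0.18 with cisplatin (95% interval -0.16 to 0.52) and by 0.16 with osimertinib (95% interval -0.18 to 0.50). MAP3K6, MAP3K10, MAP3K12 and MAP3K13 were not called with either drug, at differences between -0.23 and 0.20.

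MAP4K4 is a Ste20-family kinase that acts upstream of JNK. The array values, in log2, were 8.13, 8.56 and 8.30 in cisplatin arrays and 8.12, 8.12 and 8.17 in osimertinib arrays, against 8.61, 8.57 and 8.55 in vehicle arrays. The osimertinib arrays lay below vehicle, whereas cisplatin replicate 2 lay within the vehicle range. MAP4K4 fell by 0.44 log2 units with osimertinib (SE 0.0852, adjusted p = 0.0015, 1.36-fold). With cisplatin it fell by 0.24 (SE 0.0852, adjusted p = 0.0456, 1.18-fold), a call lost in 13 of 16 alternatives: on leaving out any array except cisplatin replicate 2 (adjusted p = 0.0568 to 0.156) and in 5 other settings (0.0774 to 0.127). MAP4K5, a relative of MAP4K4, had a log2 level of 6.92, 7.14 and 7.11 in cisplatin arrays and 7.13, 7.13 and 7.07 in osimertinib arrays, against 7.22, 7.16 and 7.23 in vehicle arrays. Its arrays did not overlap those of vehicle with either drug, but the differences of -0.14 and -0.09 were not called (adjusted p = 0.174 with cisplatin and 0.405 with osimertinib). MAP4K1, found mainly in blood cells, lay under the level limit.

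**Figure D2:**
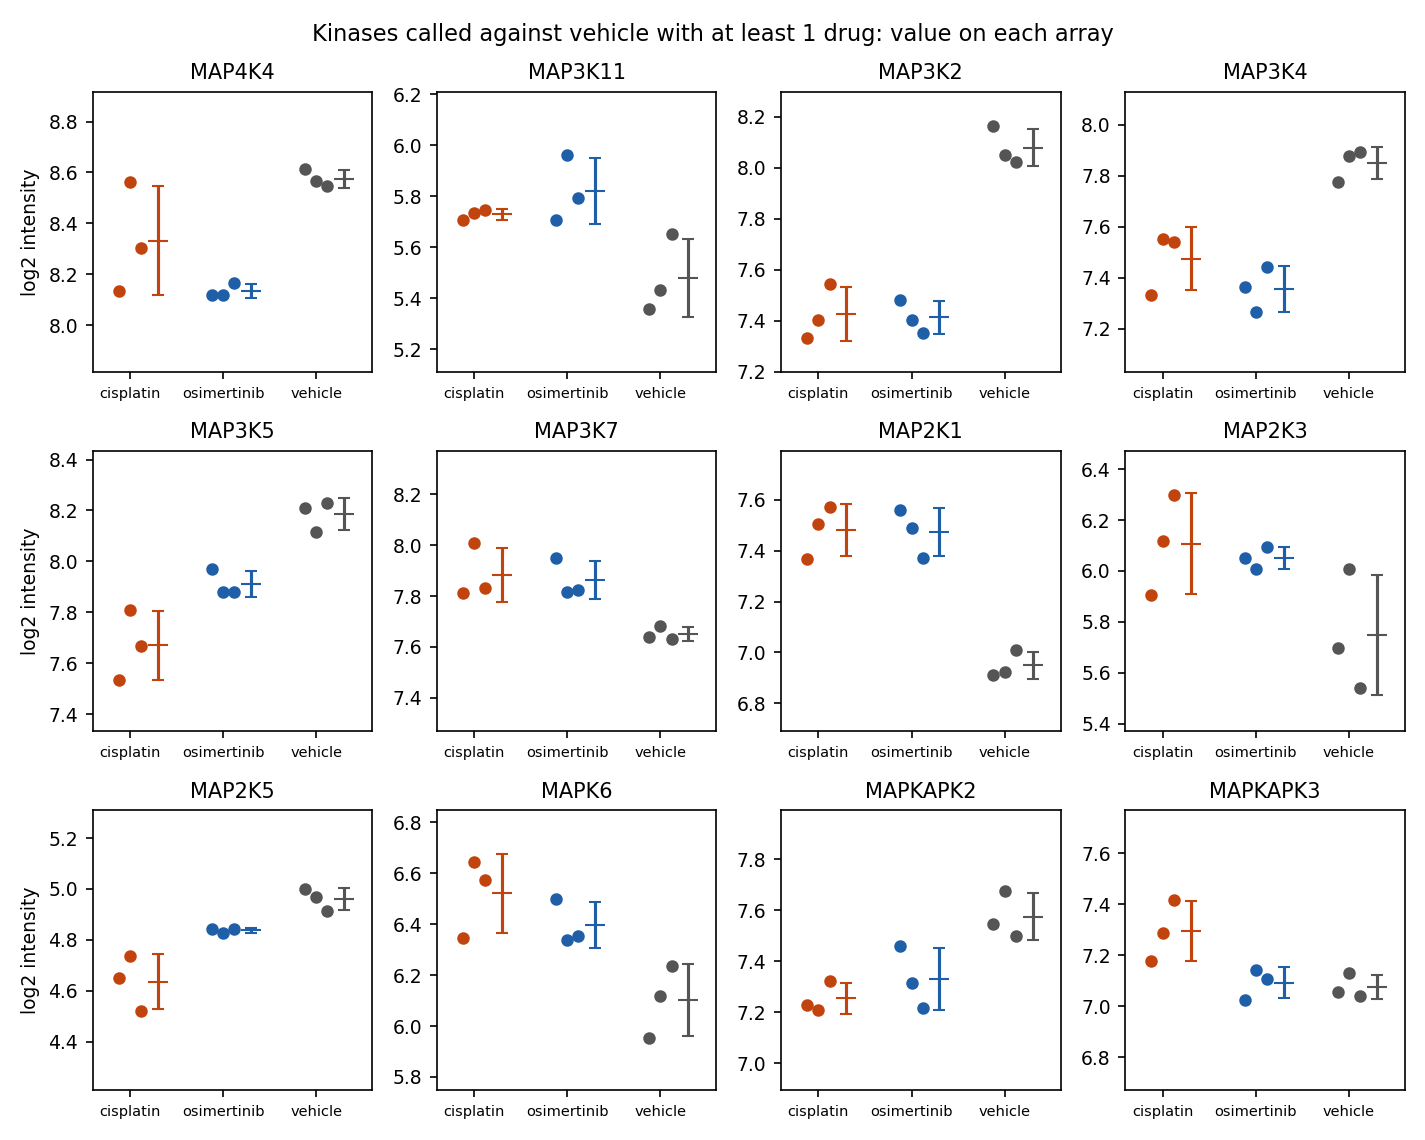
Log2 level on each of the 9 arrays (points) with the mean and SD of each group (cisplatin, osimertinib, vehicle, left to right) for the 12 kinases called with at least 1 drug; every panel spans 1.1 log2 units. In the MAP3K2 and MAP2K1 panels both drug groups lie clear of vehicle, while in the MAP2K3 panel the groups overlap.

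In the MAP kinase tier itself, 6 of 10 named genes were tested and only MAPK6 was called, with each drug. MAPK6 encodes ERK3, an atypical MAP kinase that is not a substrate of MEK1 and that partners with MAPKAPK5. The 9 arrays gave log2 levels of 6.35, 6.64 and 6.57 in cisplatin arrays and 6.50, 6.34 and 6.35 in osimertinib arrays, against 5.95, 6.12 and 6.24 in vehicle arrays. Neither drug overlapped vehicle. MAPK6 rose by 0.42 log2 units with cisplatin (SE 0.103, adjusted p = 0.00738, 1.34-fold) and by 0.29 with osimertinib (SE 0.103, adjusted p = 0.0445, 1.23-fold). The cisplatin call held in all 16 alternatives, and the osimertinib call was lost on leaving out any of 6 arrays (vehicle replicates 1 and 2, cisplatin replicate 3 and each osimertinib replicate; adjusted p = 0.0594 to 0.171), without the level filter (0.0828) and without trend and robust fitting (0.0548).

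MAPK3, which encodes ERK1, had a log2 level of 5.95, 5.98 and 6.01 in cisplatin arrays and 5.80, 5.999 and 5.80 in osimertinib arrays, against 5.86, 5.95 and 5.93 in vehicle arrays. The groups overlapped, and the difference from vehicle was 0.07 with cisplatin (95% interval -0.12 to 0.26) and -0.04 with osimertinib (95% interval -0.23 to 0.15). MAPK9, which encodes JNK2, had a log2 level of 5.80, 5.78 and 5.81 in cisplatin arrays and 6.10, 5.82 and 5.59 in osimertinib arrays, against 5.59, 5.84 and 5.80 in vehicle arrays. Its osimertinib arrays spread more widely than the others, and the differences were 0.06 with cisplatin (95% interval -0.21 to 0.32) and 0.10 with osimertinib (95% interval -0.17 to 0.36). MAPK7, which encodes ERK5 and is the target of MEK5, differed by 0.19 with cisplatin (95% interval -0.06 to 0.43) and by 0.09 with osimertinib (95% interval -0.15 to 0.34). The p38 kinases MAPK11 and MAPK12 were not called with either drug, with differences of 0.16 and -0.14 with cisplatin and 0.17 and -0.09 with osimertinib. Equal levels are not shown by these intervals. MAPK10, which encodes JNK3, lay under the level limit, as did MAPK4, MAPK13 and MAPK15. In a fit without that limit MAPK10 differed by 0.41 with cisplatin (95% interval 0.13 to 0.70, adjusted p = 0.0555), at log2 levels of 2.59, 2.41 and 2.83 in cisplatin arrays, against 2.22, 2.36 and 2.01 in vehicle arrays.

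The MAPKAP kinases are substrates of p38 and of atypical MAP kinases, and all 3 named genes were tested. MAPKAPK2 encodes MK2, which through tristetraprolin controls the stability and translation of TNF mRNA. Log2 levels were 7.23, 7.21 and 7.32 in cisplatin arrays and 7.46, 7.32 and 7.22 in osimertinib arrays, against 7.55, 7.68 and 7.50 in vehicle arrays. No array of either drug reached the vehicle range. MAPKAPK2 fell by 0.32 log2 units with cisplatin (SE 0.079, adjusted p = 0.00738, 1.25-fold) and by 0.24 with osimertinib (SE 0.079, adjusted p = 0.0317, 1.18-fold). The cisplatin call held in all 16 alternatives. The osimertinib call was lost without vehicle replicate 1, vehicle replicate 2, osimertinib replicate 2 or osimertinib replicate 3 (adjusted p = 0.0595, 0.133, 0.087 and 0.128), after median centring (0.137), without the level filter (0.059) and without trend and robust fitting (0.0587).

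MAPKAPK3 encodes MK3, a close relative of MK2. On the log2 scale it measured 7.18, 7.29 and 7.42 in cisplatin arrays and 7.02, 7.14 and 7.11 in osimertinib arrays, against 7.06, 7.13 and 7.04 in vehicle arrays. The cisplatin arrays lay above the other groups, and osimertinib and vehicle overlapped. MAPKAPK3 rose by 0.22 log2 units with cisplatin (SE 0.077, adjusted p = 0.0452, 1.16-fold), the opposite direction to MAPKAPK2, and its osimertinib difference was 0.02 (adjusted p = 0.906). The cisplatin call was lost on leaving out any of 7 arrays (each vehicle replicate, cisplatin replicates 2 and 3, and osimertinib replicates 2 and 3; adjusted p = 0.0576 to 0.197) and in 4 other settings (0.0582 to 0.0759). MAPKAPK5, which encodes PRAK, the partner of ERK3, differed by -0.24 with cisplatin (95% interval -0.50 to 0.01) and by -0.12 with osimertinib (95% interval -0.37 to 0.13).

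**Figure D3:**
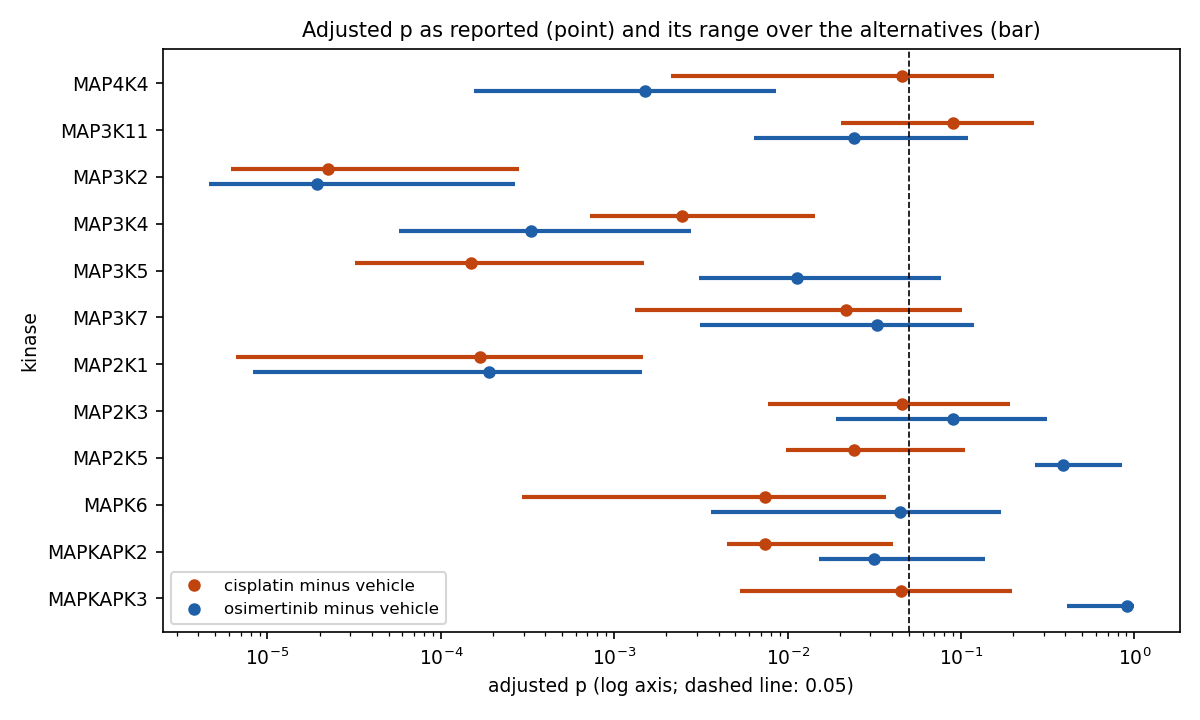
Adjusted p of each called kinase with each drug (points, log axis) with its range over the 16 alternatives (bars); the dashed line is the threshold of 0.05. The bars of MAP2K1, MAP3K2 and MAP3K4 stay below the line with both drugs. Those of MAP2K3 with both drugs and of MAPKAPK3 with cisplatin cross it, as do bars of other kinases.

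Between the drugs, 0 of 33 tested members were called for osimertinib minus cisplatin, where 1.75% of all tested genes were (0.766% higher and 0.981% lower with osimertinib). The kinases MAP3K5, MAP4K4 and MAPKAPK3, and MAPK1IP1L, which is no kinase, had an unadjusted p below 0.05. The share of all tested genes below that p was not counted, so nothing is read from their number. MAP3K5 was 0.24 log2 units higher with osimertinib (95% interval 0.08 to 0.40, adjusted p = 0.156). MAP4K4 was 0.20 lower with osimertinib (95% interval -0.38 to -0.01, adjusted p = 0.38), and MAPKAPK3 likewise 0.20 lower (95% interval -0.37 to -0.04, adjusted p = 0.283). For the kinases farthest from vehicle, the difference between the drugs was -0.01 for MAP2K1 (95% interval -0.17 to 0.16) and -0.01 for MAP3K2 (95% interval -0.17 to 0.14). For MAPK6 it was -0.12 (95% interval -0.35 to 0.10), for MAP3K4 -0.12 (95% interval -0.29 to 0.05) and for MAP2K5 0.20 (95% interval -0.01 to 0.42). The osimertinib and cisplatin arrays did not overlap for 3 members that were higher (MAP3K5, MAP2K5 and MAPK1IP1L) and 2 that were lower (MAP3K12 and MAPKAPK3), beside 7.44% and 6.88% of all tested genes. A kinase called with only 1 of the drugs is therefore not shown to differ between them.

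**Figure D4:**
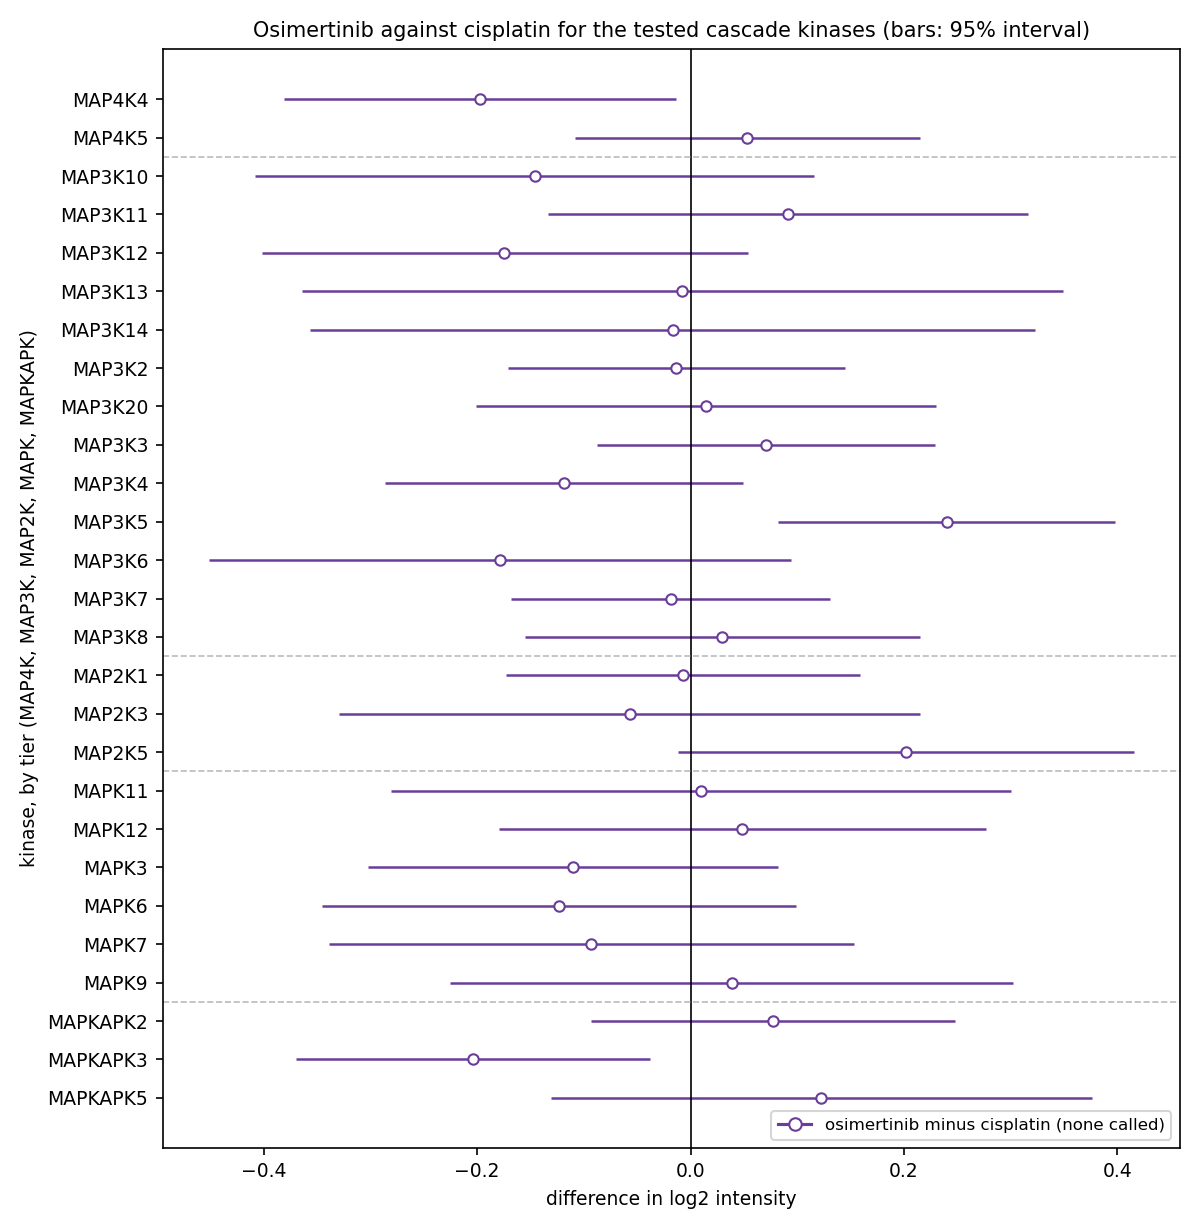
Osimertinib minus cisplatin on the log2 scale (horizontal axis) for the 27 tested kinases by tier, with 95% intervals. No kinase was called, and MAP3K5 (0.24) and MAP4K4 and MAPKAPK3 (-0.20 each) are the kinases whose interval leaves out 0.

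Of the 11 members that are not kinases, 6 were tested and 0 were called in any comparison. MAPK1IP1L had a log2 level of 7.71, 7.74 and 7.72 in osimertinib arrays and 7.47, 7.62 and 7.47 in cisplatin arrays, against 7.62, 7.53 and 7.63 in vehicle arrays. Its osimertinib arrays lay above the other groups, by 0.21 over cisplatin (adjusted p = 0.183) and 0.13 over vehicle (adjusted p = 0.16). With the mean over its 2 rows in place of the brighter one, both passed, at 0.34 over cisplatin (adjusted p = 0.0264) and 0.21 over vehicle (adjusted p = 0.0323). RPS6KA2-IT1, an intronic transcript of the gene for the ribosomal S6 kinase RSK3, had a log2 level of 4.60, 4.34 and 5.07 in cisplatin arrays, against 5.06, 4.97 and 5.17 in vehicle arrays. Cisplatin replicate 3 lay in the vehicle range, and the difference of -0.40 passed without it, and in no other alternative of the 16, at -0.60 (adjusted p = 0.00609). Signal of this transcript and of unspliced host RNA cannot be told apart here. MAPK8IP3, which encodes the JNK scaffold JIP3, had a log2 level of 6.15, 6.48 and 6.28 in cisplatin arrays and 6.34, 6.22 and 6.23 in osimertinib arrays, against 6.23, 6.17 and 6.04 in vehicle arrays. Its groups overlapped, and it differed by 0.15 with cisplatin (95% interval -0.06 to 0.37) and by 0.12 with osimertinib (95% interval -0.10 to 0.33). The cisplatin difference passed after quantile normalization, at 0.25 (adjusted p = 0.0279). The antisense transcript MAP3K14-AS1 differed by -0.01 with cisplatin and by 0.0039 with osimertinib, MAP3K7CL by -0.13 with cisplatin and by -0.12 with osimertinib, and the pseudogene MAPK8IP1P2 by -0.03 with cisplatin and by -0.07 with osimertinib. Besides the kinases named above, MAP3K9, MAP3K15, MAP3K19 and MAP3K21 lay under the level limit, as did MAP2K4P1, MAP3K20-AS1, MAP4K3-DT, MAPK8IP1 and MAPK8IP2. The 17 members under it, 12 of them kinases, had means of 1.71 to 4.24, and 0 of them were called in a fit without the limit, in which MAPK10 with cisplatin was the 1 difference at an unadjusted p below 0.05. The 13 protein-coding genes that match the symbol pattern and have no named row were not analysed here. They include those for JNK1 (MAPK8), p38α (MAPK14) and MKK7 (MAP2K7), and the genes RPS6KA1 to RPS6KA6.

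The cascades' phosphatases, inputs, adaptors, scaffolds and nuclear targets were described from 6 lists. The lists' counts and medians are read beside all tested genes, whose medians were 0.03 with cisplatin and 0.04 with osimertinib. Of all tested genes 16.5% were called higher and 14.5% lower with cisplatin, and 16.9% higher and 13.7% lower with osimertinib. Of 10 tested MAP kinase phosphatases, 4 rose with cisplatin and 3 with osimertinib, and 0 fell with either, with medians of 0.13 with cisplatin and 0.11 with osimertinib. DUSP1, which dephosphorylates p38 and JNK in the nucleus, averaged 9.40 in cisplatin arrays and 9.27 in osimertinib arrays, against 7.32 in vehicle arrays. DUSP1 rose by 2.09 log2 units with cisplatin (SE 0.0659) and by 1.96 with osimertinib, far more than any member kinase. DUSP6, the cytoplasmic phosphatase of ERK, rose by 0.52 with cisplatin and by 0.58 with osimertinib (SE 0.0384).

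Beside calls in 31.0% of all tested genes with cisplatin and 30.6% with osimertinib, of 14 tested RAS and RAF inputs 3 rose and 1 fell with cisplatin, and 4 rose and 2 fell with osimertinib, with medians of 0.04 with cisplatin and 0.12 with osimertinib. The adaptor gene GRB2 rose by 0.51 with cisplatin and by 0.50 with osimertinib, and SHOC2, whose product helps to activate RAF, by 0.52 and 0.55. NF1, which encodes the RAS inhibitor neurofibromin, fell by 0.48 with cisplatin and by 0.42 with osimertinib. SPRY4, a feedback inhibitor of receptor signalling to ERK, was the 1 gene of this list called between the drugs: it was 0.49 log2 units lower with osimertinib than with cisplatin (adjusted p = 0.00838), a call lost without cisplatin replicate 3 (adjusted p = 0.0521). Of 12 tested stress inputs and adaptors, 2 rose and 1 fell with cisplatin, and 3 rose and 1 fell with osimertinib, with medians of 0.06 with cisplatin and 0.07 with osimertinib. TRAF3 was lower with each drug by 0.36, and the ASK1 partner thioredoxin (TXN) was higher by 0.27 with cisplatin and 0.31 with osimertinib. Each of these calls was lost without vehicle replicate 2, for TRAF3 at adjusted p = 0.104 with cisplatin and 0.111 with osimertinib, and for TXN at 0.0966 with cisplatin and 0.0525 with osimertinib. They were also lost without vehicle replicate 3, cisplatin replicate 1 or osimertinib replicates 2 and 3 for TRAF3 (0.069 to 0.0803), and without vehicle replicate 1, cisplatin replicates 1 and 3 or osimertinib replicate 1 for TXN (0.0619 to 0.118). After median centring TRAF3 lost both calls (adjusted p = 0.0515 with cisplatin and 0.0739 with osimertinib). Without the level filter the TRAF3 call with osimertinib was lost (0.052), as was the TXN call with cisplatin (0.0652). That TXN call was also lost without trend and robust fitting (0.0727).

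Of 6 tested scaffold genes, 1 rose with cisplatin and 2 with osimertinib, with medians of -0.03 with cisplatin and -0.05 with osimertinib. PEA15, whose product holds ERK in the cytoplasm, rose by 0.20 with cisplatin and by 0.17 with osimertinib. Without trend and robust fitting both PEA15 calls were lost (adjusted p = 0.0591 with cisplatin and 0.116 with osimertinib), and the osimertinib call also without vehicle replicate 3 (0.0549). Of 4 tested other downstream kinases, NLK fell with each drug. NLK, the Nemo-like kinase related to MAP kinases, averaged 9.13 in cisplatin arrays and 9.03 in osimertinib arrays, against 9.82 in vehicle arrays. Its falls of 0.70 with cisplatin (SE 0.0631, adjusted p = 4.07e-06) and 0.80 with osimertinib (adjusted p = 1.19e-06) were larger than the fall of any member called.

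Beside the same 31.0% with cisplatin and 30.6% with osimertinib over all tested genes, of 18 tested nuclear substrates of MAP kinases 7 rose and 3 fell with cisplatin, and 6 rose and 3 fell with osimertinib, with medians of 0.13 with cisplatin and 0.07 with osimertinib. MEF2C and MEF2A, transcription factors that p38 and ERK5 phosphorylate, fell with each drug. MEF2C fell by 0.67 with cisplatin and by 0.56 with osimertinib. With the mean over all its rows the falls were smaller, at -0.33 with cisplatin (adjusted p = 0.0216) and -0.26 with osimertinib (adjusted p = 0.0622, no longer called). MEF2A fell by 0.37 with cisplatin and by 0.31 with osimertinib. JUN, the main JNK substrate in AP-1, rose by 1.41 with cisplatin and by 1.39 with osimertinib. JUNB rose by 0.67 with cisplatin and by 0.58 with osimertinib. EGR1, an early target of ERK signalling, rose by 0.92 with cisplatin and by 0.48 with osimertinib, and was 0.44 lower with osimertinib than with cisplatin (adjusted p = 0.00452). MYC, a transcription factor that ERK stabilises, rose by 0.64 with cisplatin and by 1.05 with osimertinib, though the difference between the drugs was not called (0.41, adjusted p = 0.108).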

How the data were processed

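Total RNA of 9 THP-1 cultures was measured, 3 each with cisplatin, osimertinib and vehicle, and groups, doses and replicate numbers come from the sample labels. Per the labels, each sample was hybridised to its own array and a service provider made gene-level values with Affymetrix pipelines, and the submitters' processing notes name Affymetrix Power Tools. How the authors summarized probes, and in which log base, was not given in the sources used here. From their range of 0.65 to 13.17 the deposited values were taken to be log2. The table holds 53617 rows, and the platform annotation, which can be old, gives 1 gene to 16098 rows (30.0%), several genes to 0 and no gene to 37519. Entrez identifiers of the 16098 rows were all found in RefSeq's table for GRCh38.p14. The row with the highest mean was taken for 779 of 14884 genes with several, and a gene entered the test where its mean reached the median over genes (7442 genes).

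Groups were compared with limma 3.58.1 (R 4.3.3), in 1 model of 3 group means that leaves 6 residual degrees of freedom. Variances were moderated by empirical Bayes with trend and robust options, and 3 contrasts were taken. For each contrast, two-sided p-values were corrected over the 7442 genes (Benjamini-Hochberg), and a gene was called at an adjusted p under 0.05. The fit was tested on simulated data. The 16 alternatives were no level filter, quantile normalization or median centring of the whole table, no trend or robust fitting, the mean over all rows of a gene, only the 2 groups compared, the replicate number as a block, and leaving out each of the 9 arrays. Of the tested members, 10 had 2 equal values within a group and 17 had a value repeated among the 9 arrays. The median SD within a group was 0.0933. Precision is limited by having 3 arrays a group. The members and lists were chosen with earlier results of these data known. List genes were named mostly among the 4 of each list with the smallest p-values in a comparison. MEF2A and the called markers of macrophages and of other cell types were added after their values were seen.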

Additional observations from a re-analysis of the deposited data

How the results depend on the processing

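Over the tested members and the called or leading genes of the lists, 3792 values stayed on their side of the threshold, 195 lost a call, 45 gained one and 0 reversed. The 3792 include values that had no call to lose, so they do not give the share of calls that held. With cisplatin the count of members called was 7 without trend and robust fitting and 6 to 10 on leaving out 1 array, against 11, and with osimertinib it was 5 to 9, against 9. For osimertinib minus cisplatin, 130 genes were called, 76 without the level filter, 218 after quantile normalization, 85 after median centring, 63 without trend and robust fitting, 77 with only the 2 groups compared and 54 to 147 on leaving out 1 array. The members' count there was 1 with the mean over all rows of a gene (MAPK1IP1L). Scaling moved the split of calls: after quantile normalization 1968 genes were higher and 975 lower with cisplatin (against 1227 and 1081), and 2005 and 932 with osimertinib (against 1255 and 1022). After median centring the split was 1536 higher and 734 lower with osimertinib, and 48 and 37 for osimertinib minus cisplatin (against 57 and 73). Among members, quantile normalization gave 7 higher and 4 lower with cisplatin and 6 and 5 with osimertinib, and median centring 5 and 4 with cisplatin and 5 and 3 with osimertinib. These scalings moved the median of all tested genes by at most 0.0734. The cause was not tested.

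The groups share replicate numbers. Deviations from the group means correlated at -0.227 to 0.126 (median 0.003) over 9 pairs of the same number. Over 18 pairs of different numbers the correlations were -0.1185 to 0.1974 (median 0.0004). Same-numbered samples were not taken as pairs. With the replicate number as a block, 9 members were called with cisplatin, 6 with osimertinib and 0 between the drugs, and 2155, 2145 and 108 over all genes. That block ended the calls of MAP2K3 (adjusted p = 0.058) and MAPKAPK3 (0.0582) with cisplatin, and of MAP3K7 (0.0501), MAPK6 (0.0601) and MAPKAPK2 (0.0506) with osimertinib. The array normalization hides a shift common to most transcripts, the values give no detection call, and 3 arrays a group leave wide intervals for most members.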
